A study of Mus musculus with 9 samples.

Results

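The genes described here are the collagen genes of mouse tail epidermis around a wound, taken as every gene whose platform symbol is Col, a number, the letter a and a number. Of 17097 genes measured by a probe set with a single symbol, 42 fitted this rule, and each was represented by its probe set with the highest mean over the 9 arrays. All 42 had their gene identifier in RefSeq's mouse annotation (GRCm38.p6), which holds 44 such symbols, and Col6a6 and Col28a1 were not analysed here.

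Basal epidermal cells of CD1 mice were profiled 4 days after a punch wound of 3 mm in the tail, with 3 arrays in each of 3 groups. Leading edge (LE) cells came from a 4 mm punch around the wound and were sorted as positive for α5 integrin. Cells of the proliferative hub, the ring behind the LE, were sorted as negative for α5 integrin by their labels. The methods give a 6 mm punch for the hub. For the α5 integrin sort, the paper names only the 4 mm punch and control skin. The punch of these hub cells is therefore not certain. Control cells were taken at a distance from the wound, with no α5 integrin gate in their labels. All groups were gated as positive for α6 integrin, which marks basal cells, and negative for CD34, a marker of hair follicle bulge cells. Each array was made from 300 cells. The methods give a pool of 5 mice for replicate samples, without naming this set of arrays. Wounding, region and the α5 integrin gate cannot be told apart in these comparisons. Replicates are biological by their labels but technical by the methods, so the p-values reflect only array-to-array spread, which may be technical.

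Values are log2 signals after robust multi-array average (RMA) processing, and a difference of 1 is a 2-fold change. Array medians lay between 6.47 and 6.53, arrays of the same group correlated at 0.988 to 0.995 and arrays of different groups at 0.964 to 0.986, and 0 pairs of arrays were identical. The 23 probe sets that read nonspecific background had means between 3.70 and 8.32, with a median of 4.67. Only 6 collagen genes had a mean over all arrays above the highest of these, namely Col17a1, Col7a1, Col18a1, Col16a1, Col4a1 and Col12a1, and 1, Col24a1, lay below the background median. Of the sort genes, Itga5, which encodes α5 integrin, averaged 9.11 ± 0.05 in the LE, 6.92 ± 0.51 in the hub and 6.40 ± 0.14 in controls (SD over the 3 arrays of each). Itga6 averaged 12.27 in the LE, 11.80 in the hub and 11.58 in controls, and Cd34 was near background at 4.79, 4.74 and 4.60 in these groups. The mean of 5 basal keratinocyte markers was 12.48 to 12.54 in the LE, 12.49 to 12.53 in the hub and 12.62 to 12.65 in control skin. These markers did not run one way. Itgb4 averaged 12.57 in the LE, 12.19 in the hub and 12.23 in control skin, whereas Dst averaged 11.09, 11.49 and 11.97. Krt5, Krt14 and Trp63 differed less between the groups.

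Collagens are proteins whose chains wind around each other into a rope-like helix. Under the epidermis, type IV collagens form the sheet-like network of the basement membrane, the transmembrane type XVII collagen holds basal keratinocytes to it at hemidesmosomes, and type VII collagen forms the anchoring fibrils that tie the sheet to the dermis. The fibrillar types I, III and V are mostly made by dermal fibroblasts.

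A gene was called when its adjusted p in limma, corrected over all 17097 genes, was under 0.05. Between LE and hub, 4 of 42 collagen genes were called, a share of 9.52% beside 10.6% of all genes, with 2 higher in the LE (5.39% of all genes) and 2 lower (5.23%). Between LE and control skin 11 were called, which was 26.2% beside 22.8%, with 5 higher (11.9% of all genes) and 6 lower (10.8%). Between hub and control skin 5 were called, which was 11.9% beside 7.28%, with 1 higher (4.16% of all genes) and 4 lower (3.12%). Called differences of at least 2-fold were found for 2, 3 and 3 collagen genes in the order of these comparisons, beside 1.87%, 4.70% and 1.09% of all genes, and all of them were lower. These were Col4a5 and Col4a6 in each, with Col6a1 in both comparisons with control skin. The arrays of the groups did not overlap for 13, 15 and 10 collagen genes (31.0%, 35.7% and 23.8%), beside 30.0%, 36.2% and 23.8% of all genes. The median log2 difference of the 42 genes was 0.01, 0.03 and -0.01 in the same order, beside -0.01, 0.02 and 0.03 for all genes. Of the 42 genes, 31 were called in 0 comparisons. The other 11, 26.2% beside 24.8% of all genes called in any comparison, were all called between LE and control skin, and the 3 comparisons share their groups.

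**Figure D1:**
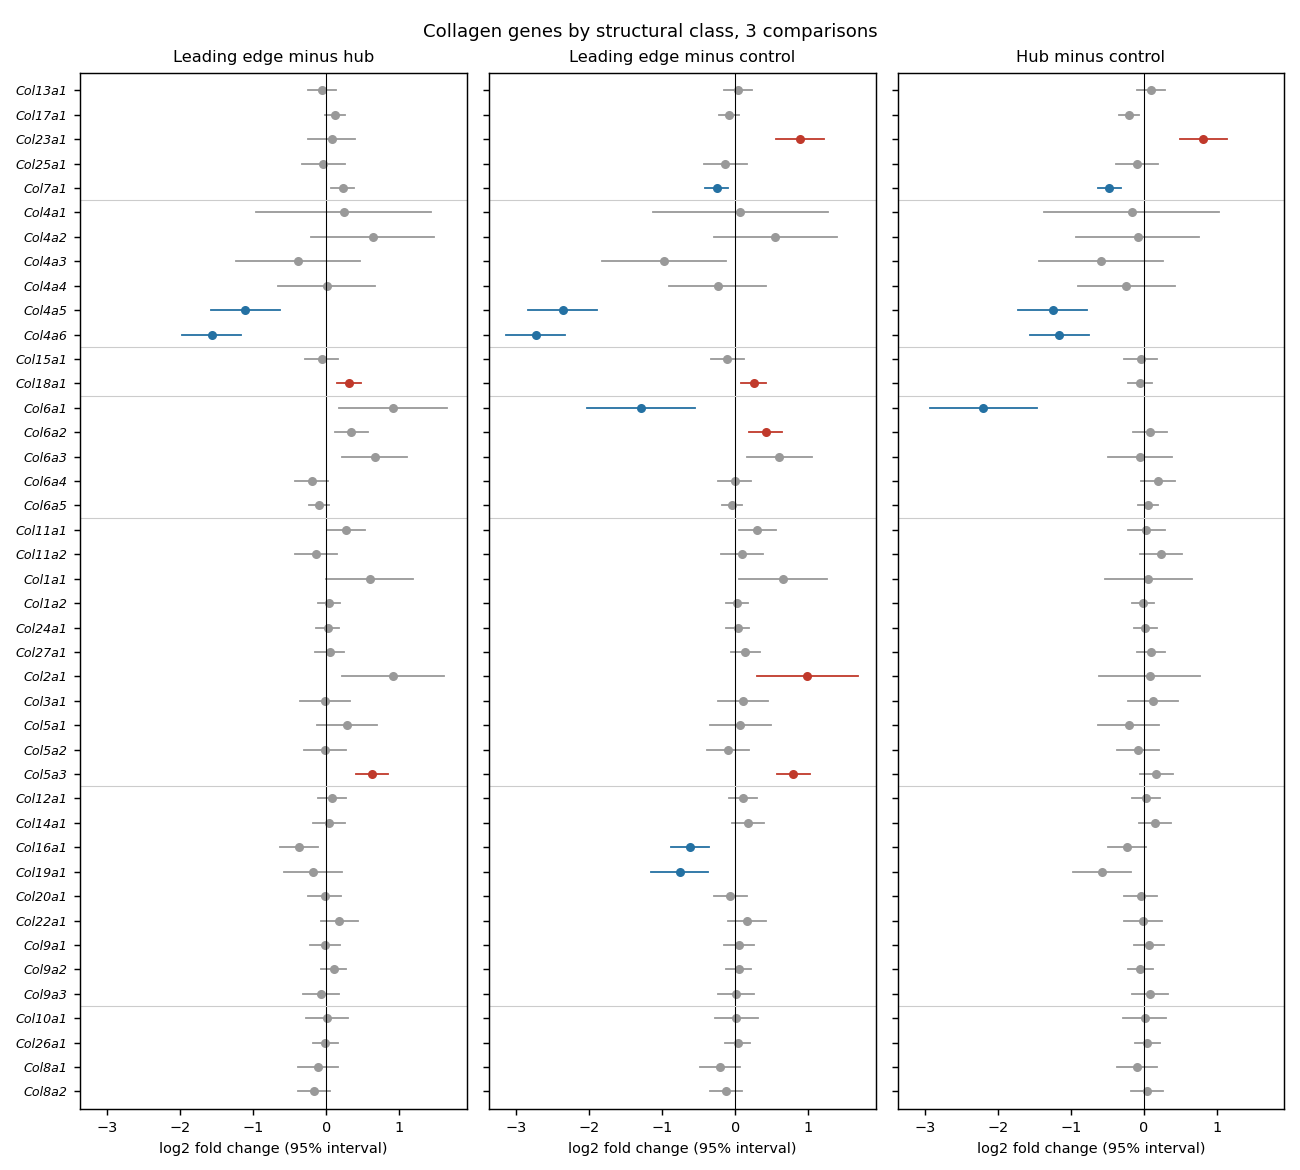
Log2 difference with its 95% interval for each of the 42 collagen genes, grouped by class, in 3 panels for LE minus hub, LE minus control and hub minus control; red points are called higher, blue called lower and grey not called. Most points lie near 0, whereas Col4a5 and Col4a6 are blue in all panels and Col6a1 has the lowest value of hub minus control, -2.20.

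The clearest differences were in Col4a5 and Col4a6, which encode the α5 and α6 chains of type IV collagen. These chains assemble with each other in the basement membrane of skin and smooth muscle. Both genes were called lower in all 3 comparisons, as 169 of the genes tested were (0.988%). In RefSeq (GRCm38.p6) they lie head to head on the X chromosome, with annotated starts 1343 bp apart on opposite strands. This layout is not particular to them, as Col4a1 and Col4a2 also start close together on opposite strands, on chromosome 8, and were not called in any comparison. The 250 bases before the starts of Col4a5 and Col4a6 are shown because these genes differ together. The stretches do not overlap. They run from chrX:141475169-141475418 on the plus strand for Col4a5 and chrX:141474077-141474326 on the minus strand for Col4a6, written 5′ to 3′ with CG dinucleotides in capitals.
Col4a5: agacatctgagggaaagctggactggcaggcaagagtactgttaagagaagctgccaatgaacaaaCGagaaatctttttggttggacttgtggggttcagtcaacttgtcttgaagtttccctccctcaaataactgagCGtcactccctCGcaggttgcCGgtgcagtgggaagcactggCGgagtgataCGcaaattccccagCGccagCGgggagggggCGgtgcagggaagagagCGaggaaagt
Col4a6: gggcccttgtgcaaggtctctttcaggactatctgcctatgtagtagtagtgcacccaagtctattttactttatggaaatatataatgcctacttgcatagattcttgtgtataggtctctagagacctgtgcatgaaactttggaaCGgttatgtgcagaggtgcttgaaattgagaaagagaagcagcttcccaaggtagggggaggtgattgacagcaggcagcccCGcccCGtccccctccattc
The Col4a5 stretch held 10 CG dinucleotides and 54.0% G and C, and the Col4a6 stretch held 3 and 47.6%. Over all promoters in the table the median was 6 CG dinucleotides (quartiles 2 and 16) and 52.4% G and C.

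Col4a6 read 6.86, 6.39 and 6.61 in the LE, 8.14, 8.34 and 8.09 in the hub, and 9.63, 9.47 and 8.95 in control skin. No array of 1 group overlapped those of another, with the LE lowest and control skin highest. The LE signal was 33.6% of that in the hub (log2 difference -1.57 ± 0.18, SE, adjusted p = 0.000572) and 15.0% of that in control skin (-2.73 ± 0.18, adjusted p = 6.38e-06). The hub signal was 44.8% of that in control skin (-1.16 ± 0.18, adjusted p = 0.00479). A second, dimmer probe set of the gene gave -1.55, -2.75 and -1.19 for the same comparisons, each called.

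Col4a5 had the same order. It read 6.85, 6.32 and 6.26 in the LE, 7.48, 8.06 and 7.23 in the hub, and 8.88, 8.81 and 8.83 in control skin, again without overlap. The LE signal was 46.2% of that in the hub (-1.11 ± 0.21, adjusted p = 0.00844) and 19.4% of that in control skin (-2.36 ± 0.21, adjusted p = 4.01e-05), and the hub signal was 42.0% of that in control skin (-1.25 ± 0.21, adjusted p = 0.00714). Its second probe set lay near background, with smaller differences of -0.47, -1.26 and -0.79, each called in the same direction. In bulk samples, fewer cells that express a gene and less RNA per cell cannot be told apart.

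The median difference of the 6 type IV genes was -0.19 for LE minus hub, -0.60 for LE minus control and -0.41 for hub minus control, but the 4 others were not called in any comparison. The arrays of Col4a1 and Col4a2 spread widely within the groups. Col4a1, a chain of the network found in nearly all basement membranes, read 10.17, 9.01 and 8.47 in the LE, 8.40, 9.68 and 8.87 in the hub, and 9.84, 8.12 and 9.48 in control skin. The groups overlapped, with differences of 0.24 (95% interval -0.96 to 1.43) for LE minus hub, 0.07 (-1.12 to 1.27) for LE minus control and -0.16 (-1.36 to 1.03) for hub minus control, so that changes of about 2-fold in either direction lie inside the intervals. Col4a2, its usual partner, read 7.87, 6.83 and 6.85 in the LE, 6.09, 6.81 and 6.74 in the hub, and 6.90, 5.86 and 7.14 in control skin. Its LE and hub arrays did not overlap (0.64, interval -0.21 to 1.48, adjusted p = 0.384), while the LE minus control value was 0.55 (-0.29 to 1.39). Both genes lay on the same side of their group mean on 8 of 9 arrays, and so did Col4a5 and Col4a6. Col4a3 and Col4a4, known as partners in the basement membrane of the kidney glomerulus, did so on 9 of 9. The same count was 7 of 9 for Col6a1 and Col6a3 and 6 of 9 for Col1a1 and Col6a3. It was not taken over all pairs of genes, and arrays of 1 group do not deviate independently from their mean. Col4a3 read 5.66, 5.54 and 5.57 in the LE, 5.88, 6.22 and 5.85 in the hub, and 7.67, 5.90 and 6.12 in control skin. Its LE arrays lay below every hub and control array, with differences of -0.39 for LE minus hub (adjusted p = 0.651), -0.97 for LE minus control (interval -1.82 to -0.12, adjusted p = 0.102) and -0.58 for hub minus control (adjusted p = 0.477). Without control replicate 1, the high array, the LE minus control value was -0.41 with an adjusted p of 0.0491, and without control replicate 2 it was -1.30 with 0.035. The second probe set of Col4a3, with a mean of 5.89 beside 6.05, did not show this. It gave 0.05 for LE minus hub, 0.05 for LE minus control and 0.00 for hub minus control, and was not called. Col4a4 gave 0.00 (interval -0.66 to 0.67), -0.24 (-0.90 to 0.43) and -0.24 (-0.90 to 0.42), and its groups overlapped.

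**Figure D2:**
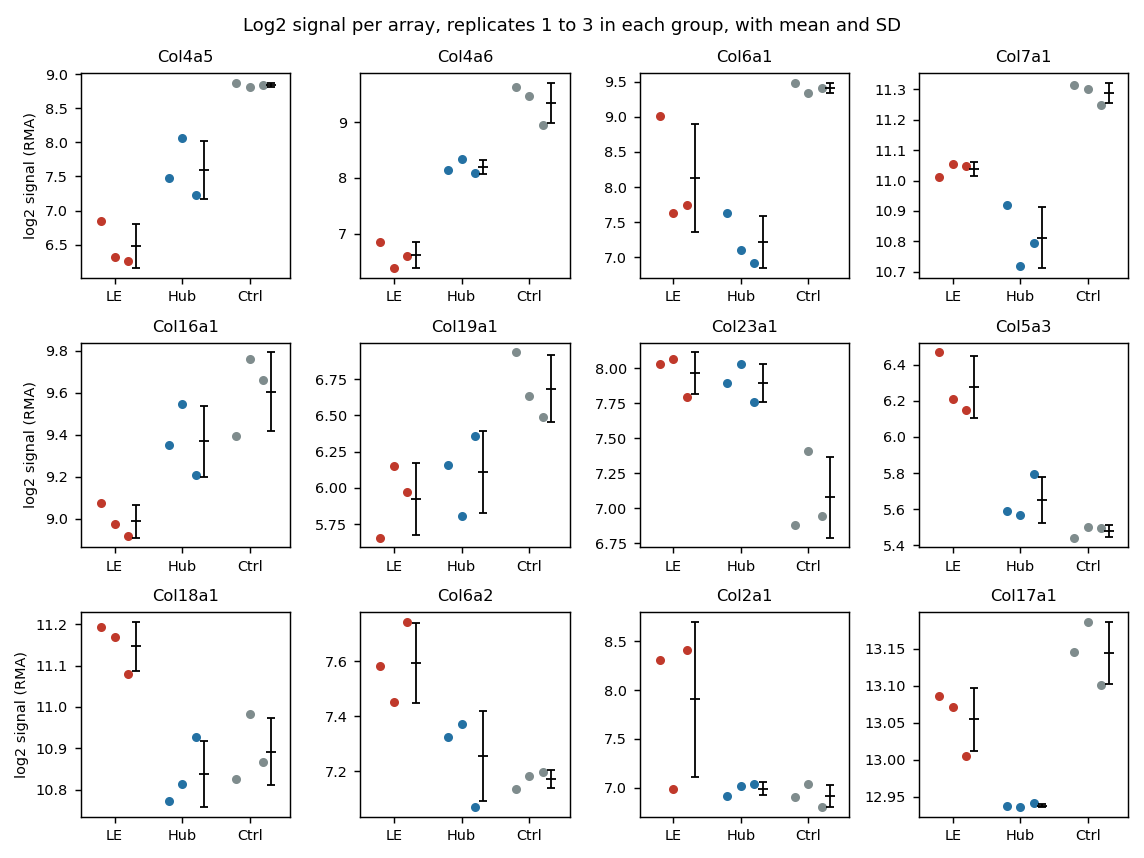
Log2 RMA signal of 12 collagen genes on each array (dots), with the mean and SD of the 3 arrays of the LE, hub and control groups, each gene on its own scale. Col4a5 and Col4a6 step up across the groups without overlap, Col6a1 is lowest in the hub, and 1 of the 3 LE arrays of Col2a1 lies at the level of the hub and control arrays.

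Among the collagens of the hemidesmosome and anchoring fibril, the differences were small. Col7a1, the anchoring fibril collagen, read 11.01, 11.06 and 11.05 in the LE, 10.92, 10.72 and 10.80 in the hub, and 11.31, 11.30 and 11.25 in control skin, so that the groups were separate and the hub was lowest. The hub signal was 71.9% of that in control skin (-0.48 ± 0.07, adjusted p = 0.00391). The LE value was also lower than in control skin (-0.25 ± 0.07, adjusted p = 0.0292), but leaving out single arrays took its adjusted p as high as 0.0755, and the call was kept in 4 of 9 such fits. It was lost without LE replicate 1, 2 or 3 or control replicate 1 or 2.

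Col17a1 read 13.09, 13.07 and 13.01 in the LE, 12.94 on each hub array, and 13.15, 13.19 and 13.10 in control skin. The arrays of the 3 groups did not overlap, in the same order as for Col7a1, but Col17a1 was called in 0 comparisons. The hub minus control difference was -0.21 (95% interval -0.34 to -0.07, adjusted p = 0.0801), and the LE minus hub and LE minus control values were 0.12 (-0.02 to 0.25) and -0.09 (-0.23 to 0.05). With a mean-variance trend in the fit all 3 passed the test, with adjusted p of 0.000742 for hub minus control, 0.0137 for LE minus hub and 0.0295 for LE minus control, and after repeated quantile normalization hub minus control did (0.0281).

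Col23a1, another transmembrane collagen, went the other way. It read 8.03, 8.07 and 7.79 in the LE, 7.89, 8.03 and 7.76 in the hub, and 6.88, 7.41 and 6.94 in control skin, with both wound groups above every control array. It was 1.85-fold higher in the LE than in control skin (0.89 ± 0.15, adjusted p = 0.00175) and 1.76-fold higher in the hub (0.82 ± 0.15, adjusted p = 0.00954). LE and hub differed by 0.07 (interval -0.26 to 0.40). Of its 2 other probe sets, 1 gave 0.94 and 0.77 for LE minus control and hub minus control (adjusted p = 0.0185 and 0.0937), and the other gave 0.00 and 0.24 and was not called. The remaining transmembrane genes of the class, Col13a1 and Col25a1, were not called.

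Col18a1, a basement membrane collagen whose end fragment is endostatin, was higher in the LE than in either other group. It read 11.19, 11.17 and 11.08 in the LE, 10.77, 10.81 and 10.93 in the hub, and 10.83, 10.98 and 10.87 in control skin, and every LE array was above the rest. The differences were 0.31 ± 0.07 against the hub (adjusted p = 0.0281) and 0.25 ± 0.07 against control skin (adjusted p = 0.0362). Neither call was stable to leaving out arrays. The call against the hub was lost without LE replicate 1 or 2 or hub replicate 1 or 2 (adjusted p up to 0.102), and that against control skin without LE replicate 1 or 2, hub replicate 2 or control replicate 1 or 3 (up to 0.106). A second, dimmer probe set of Col18a1 gave 0.40 against the hub, not called (adjusted p = 0.0608), and 0.43 against control skin, called (adjusted p = 0.023). Col15a1, the related multiplexin, was not called.

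Type VI collagen forms beaded filaments next to basement membranes from chains of Col6a1, Col6a2 and Col6a3, and these genes did not move alike. Col6a1 read 9.01, 7.63 and 7.75 in the LE, 7.64, 7.10 and 6.91 in the hub, and 9.49, 9.35 and 9.42 in control skin. All wound arrays were below all control arrays, and the highest hub array reached just above the lowest LE array. The hub signal was 21.8% of that in control skin (-2.20 ± 0.33, adjusted p = 0.00413), a call kept in 9 of 9 fits with 1 array left out. The LE signal was 40.9% of that in control skin (-1.29 ± 0.33, adjusted p = 0.0185), a call lost without LE replicate 2 or 3 (adjusted p up to 0.0762). The LE minus hub difference was 0.91 (interval 0.18 to 1.65, adjusted p = 0.121).

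Col6a2 read 7.58, 7.45 and 7.74 in the LE, 7.32, 7.37 and 7.07 in the hub, and 7.13, 7.18 and 7.20 in control skin, with the LE above both. It was higher in the LE than in control skin (0.42 ± 0.10, adjusted p = 0.0143), a call lost without LE replicate 3 (adjusted p = 0.0554), and the LE minus hub value was 0.34 (adjusted p = 0.0655). A dimmer probe set of the gene was called higher in the LE against both groups, by 0.80 and 0.79. Col6a3 read 5.92, 4.93 and 5.32 in the LE, against 4.67 to 4.77 in the hub and 4.74 to 4.82 in control skin, where it lay near background. The values of 0.66 against the hub and 0.61 against control skin did not pass the test (adjusted p = 0.0649 and 0.0534), and both passed it without LE replicate 2 (0.0109 and 0.00614). Col6a4 gave -0.20 for LE minus hub, -0.01 for LE minus control and 0.19 for hub minus control, Col6a5 gave -0.10, -0.05 and 0.06, and neither was called.

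Of 11 fibrillar collagen genes, 1 was called between LE and hub, 2 between LE and control skin and 0 between hub and control skin. All were higher in the LE. Of all genes, 10.6%, 22.8% and 7.28% were called in these comparisons, and 5.39%, 11.9% and 4.16% were called higher. By limma's unadjusted p under 0.05, 0 were higher and 0 lower in the hub than in control skin, beside 1929 and 1402 of all 17097 genes. Col5a3, a chain of the regulatory type V collagen, read 6.47, 6.21 and 6.15 in the LE, 5.59, 5.57 and 5.80 in the hub, and 5.44, 5.50 and 5.50 in control skin. No LE array overlapped the others, and the LE was 1.54-fold above the hub (0.63 ± 0.10, adjusted p = 0.00327) and 1.74-fold above control skin (0.80 ± 0.10, adjusted p = 0.000323). These signals were low, and the second probe set of the gene gave 0.10 and 0.15, neither called.

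Col2a1, the main collagen of cartilage, read 8.31, 6.99 and 8.41 in the LE, 6.92, 7.02 and 7.04 in the hub, and 6.90, 7.04 and 6.80 in control skin. LE replicate 2 lay among the other groups. The LE minus control difference was 0.99 ± 0.31 (adjusted p = 0.0458), a call kept in 1 of 9 fits with 1 array left out, the fit without LE replicate 2 (adjusted p = 3.24e-05), with values up to 0.16 in the others.

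The collagens most abundant in dermis showed no called difference. Col1a1 read 8.12, 6.87 and 7.10 in the LE, 6.93, 6.76 and 6.62 in the hub, and 6.65, 6.71 and 6.77 in control skin, with differences of 0.60 (adjusted p = 0.222) and 0.65 (adjusted p = 0.115) for LE minus hub and LE minus control. The highest LE array was replicate 1, and the LE minus control value passed the test without LE replicate 2 (0.90, adjusted p = 0.039). Col1a2, its partner chain, lay at 4.64 to 4.78 in the LE, 4.63 to 4.70 in the hub and 4.61 to 4.74 in control skin, at the background median, and Col3a1 averaged 6.46, 6.48 and 6.36 in the LE, hub and control skin. The intervals for LE minus hub were -0.12 to 0.19 for Col1a2 and -0.36 to 0.32 for Col3a1. Col5a1 gave 0.28 (interval -0.13 to 0.70) for LE minus hub and 0.07 (-0.34 to 0.49) for LE minus control. Col5a2 gave -0.02 (-0.31 to 0.27) and -0.10 (-0.39 to 0.19) for the same comparisons. Col5a2, Col11a1, Col11a2, Col24a1 and Col27a1 were not called, and neither were the 4 short chain and other collagens, Col8a1, Col8a2, Col10a1 and Col26a1. Col11a1 passed the test without LE replicate 2, with 0.39 for LE minus hub and 0.43 for LE minus control (adjusted p = 0.0493 and 0.0174).

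Of the 9 collagens that attach to the surface of fibrils or lie beside them (FACIT collagens), 2 were called. Both were lower in the LE than in control skin, where 22.8% of all genes were called and 10.8% were lower. Col16a1, which is found near the junction of epidermis and dermis, read 9.07, 8.97 and 8.92 in the LE, 9.35, 9.54 and 9.21 in the hub, and 9.39, 9.76 and 9.66 in control skin. The LE was below both groups, whereas hub and control skin overlapped. Its LE signal was 65.2% of that in control skin (-0.62 ± 0.12, adjusted p = 0.00372), with values of -0.38 for LE minus hub (adjusted p = 0.068) and -0.24 for hub minus control (adjusted p = 0.307). Col19a1 read 5.65, 6.15 and 5.97 in the LE, 6.16, 5.80 and 6.36 in the hub, and 6.94, 6.63 and 6.49 in control skin. Its LE signal was 59.0% of that in control skin (-0.76 ± 0.18, adjusted p = 0.0116), and its 2 other probe sets were not called. Col12a1, Col14a1, Col9a1, Col9a2, Col9a3, Col20a1 and Col22a1 were not called.

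Collagen genes varied more between arrays of 1 group than other genes. Their median residual SD was 0.15, beside 0.12 for all genes, and 6 of 42 (14.3%) had a residual SD above 0.4, beside 1.59% of all genes. These were Col4a1 (0.81), Col4a2 (0.57), Col4a3 (0.57), Col6a1 (0.49), Col2a1 (0.47) and Col4a4 (0.45), which includes 4 of the 6 type IV genes. Col4a5 (0.31) and Col4a6 (0.26) were below this limit, but their residual SD still stood at percentiles 95.7 and 91.5 of all genes.

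Markers of other cell types also differed between arrays. The mean of 12 endothelial markers was 7.28, 6.37 and 6.47 on the LE arrays, 6.36 to 6.74 in the hub and 6.10 to 6.34 in control skin. Of these markers, Cdh5, a junction protein of vessels, read 9.73 on LE replicate 1 and 7.02 and 6.86 on the other LE arrays. Members of the list did not all run this way. Vwf (5.72 against 5.96 and 5.86) and Esam (6.06 against 6.15 and 6.48) were lowest on LE replicate 1 among the LE arrays. The mean of 10 myeloid markers was 6.82, 5.93 and 6.56 in the LE, against 5.92 to 5.98 in the hub and 5.87 to 5.92 in control skin. Col2a1, Col1a1 and Col6a3 shared the low value on LE replicate 2 with the myeloid list, and Col4a1, Col4a2, Col1a1, Col6a1 and Col6a3 shared the high value on LE replicate 1 with both lists. These genes are named because of those values, and not all collagen genes ran this way. Among others, Col3a1 (6.22 against 6.36 and 6.81) and Col14a1 (6.02 against 6.20 and 6.42) were lowest on LE replicate 1 among the LE arrays. Across all arrays, Col4a1 lay on the same side of its group mean as Cdh5 on 5 of 9, and Col4a2 did on 6 of 9. The part of these cells in the collagen signals was not tested.

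The mean of 14 fibroblast markers, collagens left out, was 6.36 to 6.44 in the LE, 6.39 to 6.57 in the hub and 6.23 to 6.40 in control skin. Of these, 2 were called higher and 2 lower between LE and control skin (11.9% and 10.8% of all genes). Those called did not run one way. Fbln1, a matrix protein, averaged 11.15 in the LE, 11.09 in the hub and 9.89 in control skin, and was higher by 1.27 in the LE (adjusted p = 6.52e-05) and 1.20 in the hub (adjusted p = 0.000614) than in control skin. Vim, the mesenchymal intermediate filament, was higher in the LE than in control skin by 2.62 (adjusted p = 0.0427), a call lost without any 1 of LE replicates 1 to 3, hub replicate 2 or control replicates 1 to 3 (adjusted p up to 0.143). Thy1, a surface glycoprotein, averaged 8.85 in the LE, 10.09 in the hub and 10.14 in control skin, and was lower in the LE by -1.23 against the hub and -1.28 against control skin (adjusted p = 0.000361 and 8.55e-05). Among the receptors and matrix proteins that define fibroblasts, Pdgfra was at 4.52 to 4.85 in the LE, 4.79 to 4.90 in the hub and 4.87 to 5.00 in control skin, and Lum was at 4.66 to 5.01, 4.83 to 4.92 and 4.93 to 5.07 in the same groups. Both lay near background on all arrays. Other markers of the list lay higher without being called. Pdgfrb averaged 6.70 in the LE, 6.75 in the hub and 6.59 in control skin, and Twist2 averaged 6.36, 6.39 and 6.40. Dcn, a small proteoglycan that binds collagen fibrils, was lower in the LE (6.60, 6.90 and 7.50) and the hub (7.64, 7.36 and 7.66) than in control skin (8.84, 8.54 and 8.56), by -1.65 and -1.09 (adjusted p = 0.000304 and 0.0115). Col4a5, Col4a6 and Col6a1 were likewise lower in both wound groups than in control skin, and the part of fibroblasts in their signals was not tested.

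**Figure D3:**
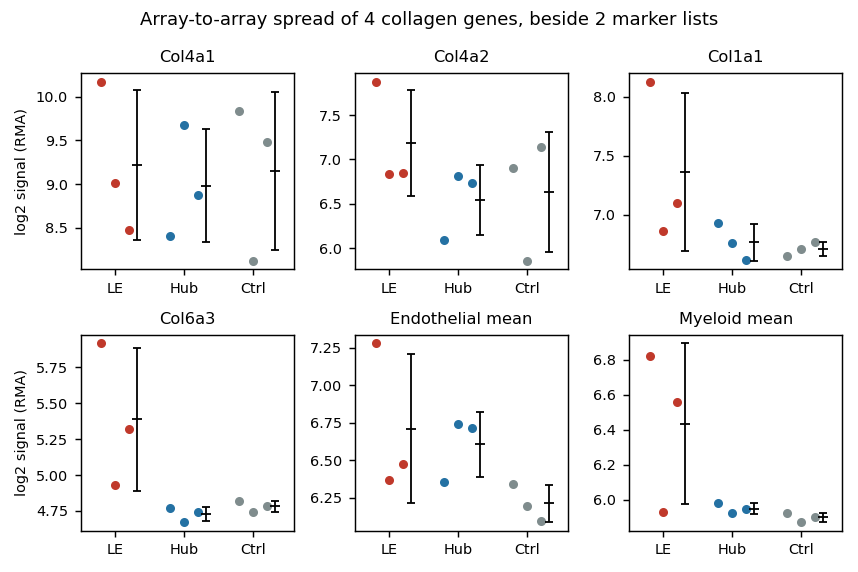
Log2 RMA signal on each array (dots), with mean and SD by group, for Col4a1, Col4a2, Col1a1 and Col6a3 beside the mean of the endothelial and of the myeloid marker list. LE replicate 1, the leftmost dot, is the highest LE array in each panel, and LE replicate 2 is low in the myeloid mean (5.93) as it is in Col1a1 and Col6a3.

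Enzymes, chaperones and export factors that modify, fold and move collagen chains in the endoplasmic reticulum were measured for 18 genes. Of these, 4 were higher and 2 lower in the LE than in the hub (5.39% and 5.23% of all genes). Against control skin, 7 were higher and 1 lower in the LE (11.9% and 10.8% of all genes). In the hub, 2 were higher and 1 lower than in control skin (4.16% and 3.12% of all genes). The list medians were 0.01, 0.08 and 0.10. The lysyl hydroxylases, which prepare chains for crosslinks, stood higher in the LE on average. Of these, Plod3 was not called against the hub (0.53, adjusted p = 0.054). Plod2 read 8.84, 8.06 and 7.92 in the LE, 7.18, 7.06 and 7.19 in the hub, and 6.89, 6.71 and 6.87 in control skin, without overlap between LE and the rest. It was higher by 1.13 ± 0.20 against the hub (adjusted p = 0.00606) and 1.45 ± 0.20 against control skin (adjusted p = 0.000632). Plod1 and Plod3 were higher in the LE than in control skin, by 0.89 (adjusted p = 0.00565) and 0.73 (adjusted p = 0.00653), and Plod1 also against the hub, by 0.65 (adjusted p = 0.0478), a call lost without LE replicate 1 or 3, hub replicate 1 or 2 or any control replicate (adjusted p up to 0.151).

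The prolyl hydroxylase subunits, which stabilise the helix, differed in pattern. P4ha3 was highest in the hub, at 8.07, 7.92 and 7.94 in the LE, 8.66, 8.54 and 8.77 in the hub, and 6.55, 7.22 and 7.03 in control skin. The hub exceeded control skin by 1.72 ± 0.15 (adjusted p = 0.000329) and the LE did by 1.04 ± 0.15 (adjusted p = 0.00085), while the LE was lower than the hub by -0.68 ± 0.15 (adjusted p = 0.0189), a call lost without LE replicate 2 or 3 or hub replicate 1 or 3 (adjusted p up to 0.07). P4ha2, another catalytic subunit, was higher in the LE by 0.39 against the hub (adjusted p = 0.0186) and 0.52 against control skin (adjusted p = 0.00192), with the call against the hub lost without LE replicate 2 or 3 or hub replicate 1 (adjusted p up to 0.0763). P4hb, the shared subunit that is also protein disulfide isomerase, was higher by 0.34 for LE minus hub, 0.68 for LE minus control and 0.33 for hub minus control (adjusted p = 0.00957, 7.37e-05 and 0.0159), the last of these lost without hub replicate 1 or 2 (adjusted p up to 0.0582). Colgalt1, a galactosyltransferase of hydroxylysine, was lower in the LE than in the hub (-0.44, adjusted p = 0.0207) and than in control skin (-0.50, adjusted p = 0.005). The call against the hub was lost without LE replicate 1, 2 or 3 or hub replicate 1 or 3 (adjusted p up to 0.0786). P3h2, a prolyl 3-hydroxylase, was lower in the hub than in control skin (-0.58, adjusted p = 0.0113).

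Of 12 genes that process procollagen outside the cell or crosslink it, 2 were higher in the LE than in the hub (5.39% of all genes). Against control skin, 3 were higher in the LE (11.9% of all genes) and 1 in the hub (4.16%). In each comparison 0 were lower, beside 5.23%, 10.8% and 3.12% of all genes. By limma's unadjusted p under 0.05, 0 were lower as well, beside 2020, 2652 and 1402 of all 17097 genes. The list medians were 0.13, 0.20 and 0.01. Tll1, a protease of the group that trims procollagen ends, read 10.33, 9.82 and 9.75 in the LE, 7.23, 7.93 and 7.89 in the hub, and 7.36, 7.49 and 6.39 in control skin. Every LE array was above the rest, by 2.28 ± 0.30 on average against the hub (adjusted p = 0.00126) and 2.88 ± 0.30 against control skin (adjusted p = 0.000109). Bmp1, the other member of that group called, was higher by 0.39 and 0.35 against the hub and control skin (adjusted p = 0.0396 and 0.0376). The call against the hub was lost without LE replicate 1, 2 or 3, hub replicate 1 or 2 or control replicate 1 (adjusted p up to 0.137), and that against control skin without LE replicate 1 or 3, hub replicate 1 or control replicate 1 or 3 (up to 0.111). Pxdn, a peroxidase that links type IV collagen networks, was higher than in control skin by 0.75 in the LE (adjusted p = 0.00404) and 0.61 in the hub (adjusted p = 0.0301), a hub call lost without LE replicate 2, hub replicate 2 or control replicate 2 or 3 (adjusted p up to 0.0811).

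Of 8 collagen receptor genes, 2 were higher and 1 lower in the LE than in the hub (5.39% and 5.23% of all genes). Against control skin, 3 were higher and 2 lower in the LE (11.9% and 10.8% of all genes). In the hub, 0 were higher and 1 lower than in control skin (4.16% and 3.12% of all genes). By limma's unadjusted p under 0.05, 1 was higher in the hub than in control skin, beside 1929 of all 17097 genes. The list medians were 0.13, 0.26 and -0.01. Itga2, the integrin subunit through which keratinocytes bind fibrillar collagen, read 9.40, 9.61 and 9.22 in the LE, 7.89, 7.42 and 8.22 in the hub, and 8.46, 7.81 and 8.40 in control skin. It was higher in the LE by 1.57 ± 0.22 against the hub (adjusted p = 0.00195) and 1.19 ± 0.22 against control skin (adjusted p = 0.0039). Ddr1, a collagen-binding receptor kinase of epithelia that responds to type IV collagen, read 9.86, 9.95 and 9.85 in the LE, 10.57, 10.51 and 10.55 in the hub, and 10.90, 11.01 and 11.00 in control skin. It had the same order of groups as Col4a5 and Col4a6, with differences of -0.65 ± 0.07, -1.08 ± 0.07 and -0.43 ± 0.07 for LE minus hub, LE minus control and hub minus control (adjusted p = 0.000313, 4.32e-06 and 0.00475). Ddr2, its relative in mesenchymal cells, was higher in the LE than in control skin by 0.79 (adjusted p = 0.00652), and Mrc2, a receptor that takes up collagen, by 0.39 (adjusted p = 0.0183), a call lost without LE replicate 1 or 2 or control replicate 2 (adjusted p up to 0.0704).

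**Figure D4:**
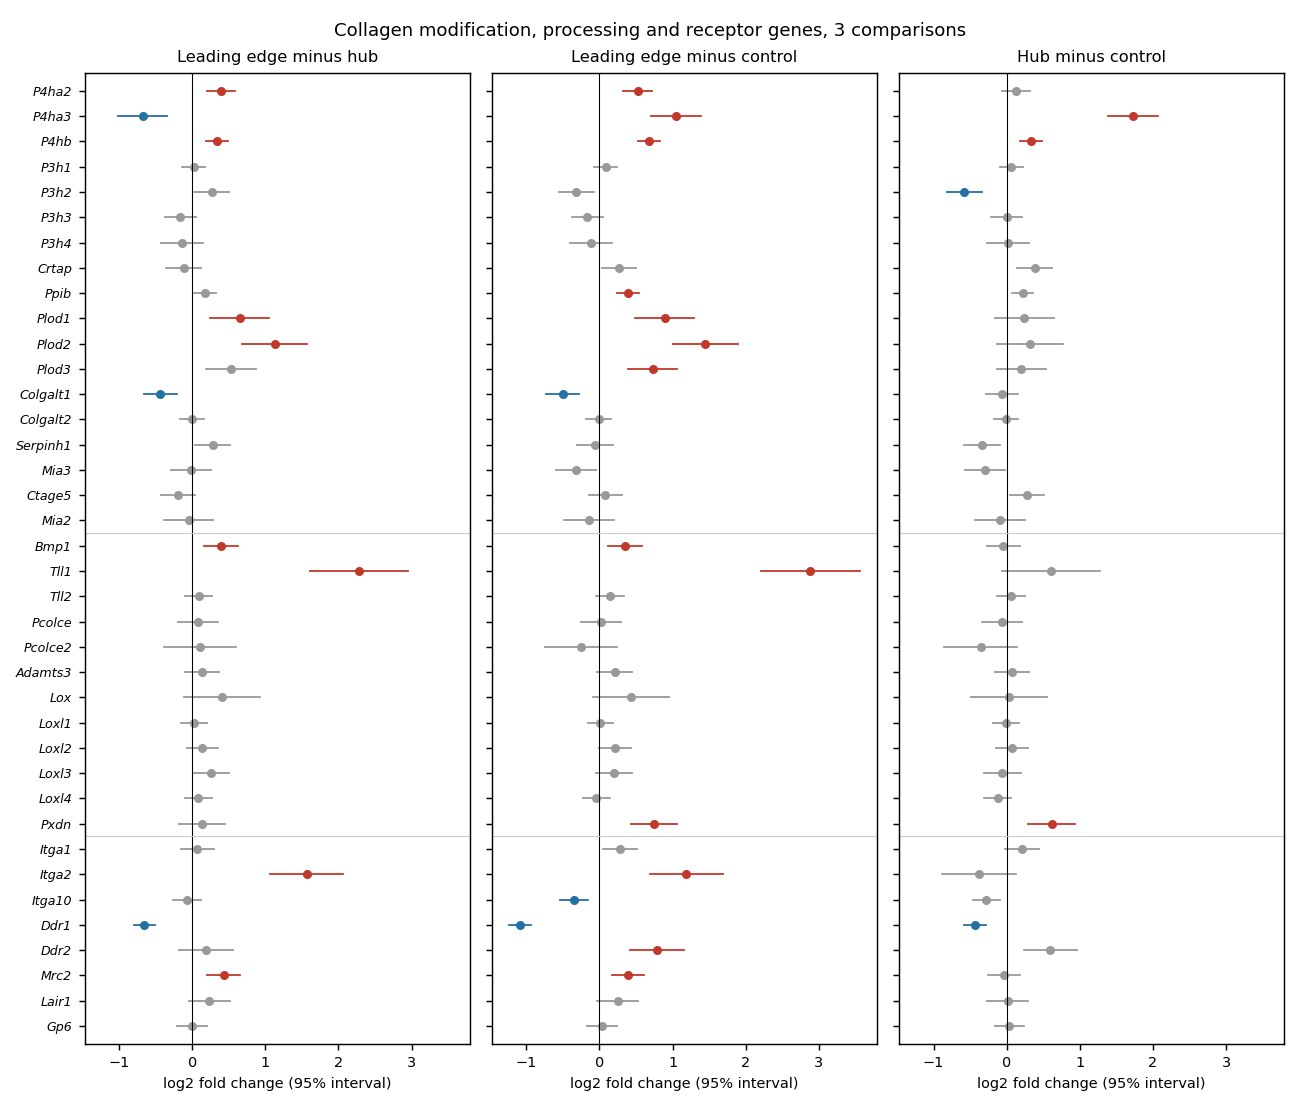
Log2 difference with its 95% interval for genes of collagen modification, processing and receptors, in panels for LE minus hub, LE minus control and hub minus control; red points are called higher, blue called lower and grey not called. Tll1, Itga2 and Plod2 lie farthest to the right in LE minus hub, P4ha3 is the highest value in hub minus control at 1.72, and Ddr1 is blue in all panels.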

How the data were processed

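The 9 arrays (Affymetrix mouse PM strips) hold log2 signals that the authors made with RMA, which corrects background, gives the arrays a common distribution and summarises each probe set. The deposited log2 values were used as they are; for RMA's version, nothing was given in the sources used here. Common distributions hide changes in total RNA. Of 45141 probe sets, 28898 had 1 symbol in the platform annotation, 551 several, 15588 none and 104 were controls. Single-symbol probe sets were tested without a filter on dim genes, the one with the highest mean standing for a gene.

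Group means over all 9 arrays were fitted in limma 3.58.1 under R 4.3.3, two-sided, with Benjamini-Hochberg adjustment over 17097 genes, and the test was checked on simulated data. The number of arrays limits the precision. Members, gene lists and tests were chosen with earlier results of these data known. Values are given for up to 8 called collagen genes per comparison with the largest differences, for Col17a1, Col7a1, Col4a1, Col4a2, Col18a1, Col1a1, Col1a2, Col3a1, Col5a1, Col6a2 and Col6a3 whatever their call, for up to 4 called genes of each pathway list per comparison, and for the sort genes; P4ha2, marker genes and further collagen genes were added after their values were seen. P4ha1, Fkbp10, Fkbp14, Adamts2, Adamts14 and Itga11 were not analysed here. Promoters came from RefSeq GRCm38.p6.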

Additional observations from a re-analysis of the deposited data

Results flagged for a closer look

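For 4 collagen genes the difference from control skin was not the same in both wound groups, by limma's test of LE against hub. This share of 9.52% was close to the 10.6% of all genes called there. It was more negative in the LE for Col4a6 (by -1.57, adjusted p = 0.000572) and Col4a5 (by -1.11, adjusted p = 0.00844). It was more positive in the LE for Col5a3 (by 0.63, adjusted p = 0.00327) and Col18a1 (by 0.31, adjusted p = 0.0281). All LE arrays lay on 1 side of all hub arrays for each of these genes, as they did for 30.0% of all genes. The Col18a1 call was kept in 5 of 9 fits with 1 array left out. Second probe sets of Col5a3 and Col18a1 gave 0.10 and 0.40 and were not called. With groups of 3 arrays, single arrays were not tested as outliers.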

How the results depend on the processing

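The count of collagen genes called, 4 for LE against hub, 11 for LE against control skin and 5 for hub against control skin, was within 1.5 times these values under most alternatives. Counted over all 68 probe sets it was 7, 18 and 8, and a mean-variance trend gave 7 for LE against hub. A 2-fold minimum beside the adjusted p left 2, 3 and 3. The methods' fold rule, read as a difference over 2-fold in every pair of arrays that share a number, left 1, 2 and 1, with no p. Leaving out 1 array gave 3 to 6, 7 to 11 and 5 to 5, with 7 reached without LE replicate 3. The replicate numbers gave little sign of pairing (correlations of deviations between -0.178 and 0.0815, the same number the best match in 7 of 18 cases). With so few arrays this cannot show that the samples were unpaired. With a replicate block the counts were 4, 9 and 5, of which 3, 8 and 5 were among the genes called without it. Of 2487 values of single collagen genes under an alternative, 61 lost and 24 gained a call. In 0 of them did a called difference change sign, whereas 102 changed sign that were called under neither setting. Of 1137 values of the other genes named, 119 lost and 15 gained a call, 0 called ones changed sign and 10 uncalled ones did. Signals near background, as for Col1a2, Col6a3 and Col24a1, limit what could be detected.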

Other observations

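Probe sets of Col8a1, a short chain collagen of vessel walls, did not give the same answer, and are given here because of those values. The brightest was not called, with -0.21 for LE minus control and -0.09 for hub minus control. A dimmer one was lower in both comparisons, by -0.55 (adjusted p = 0.00223) and -0.49 (adjusted p = 0.0146). The third gave -0.43 for LE minus control (adjusted p = 0.0311) and -0.25 for hub minus control (adjusted p = 0.305). Of 21 collagen genes with more than 1 probe set, 0 had probe sets called in opposite directions in any comparison.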
